A study of Drosophila melanogaster with 2 samples.

Results

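Peroxins are the proteins that build the peroxisome, and the genes described here are the 8 peroxin genes Pex2, Pex3, Pex5, Pex6, Pex10, Pex13, Pex16 and Pex19 of Drosophila melanogaster. They were chosen by name, out of 13968 protein-coding genes in the Ensembl annotation of dm6, and binding of the zinc finger factor sugarbabe (sug) was read at their promoters and in their gene bodies. Chromatin was immunoprecipitated with anti-GFP from whole mixed-sex embryos aged 8 to 24 hours, of 1 transgenic line in which sug carries a C-terminal eGFP, in 2 biological replicates from separate embryo samples. The sources used here do not say what drives the fusion or whether untagged sug was present too, and embryos of an untagged line were not analysed here. The authors' lists held 30000 peak summits for either replicate and for the pooled reads, and the set they kept by irreproducible discovery rate (IDR) held 9342, all of them rows of the pooled list. Signal is the authors' own value per summit and ranks summits within 1 list, with rank 1 the highest, and the read depth is unknown. The highest summit inside sug itself ranked 1 in the IDR set, 1 in replicate 1 and 3 in replicate 2. Without an untagged line these ranks are a description and do not check the tagged protein.

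Peroxisomes are single-membrane organelles that break down very long-chain fatty acids and hydrogen peroxide and take part in ether lipid synthesis. Their membrane proteins are inserted with the help of Pex3, Pex16 and Pex19. Enzymes made in the cytosol are carried to the organelle by receptors such as Pex5, dock at Pex13 and Pex14, and are released inside, after which ubiquitin ligases such as Pex2 and Pex10 and the ATPase Pex6 help to return the receptor to the cytosol. Loss of peroxins in flies, as in people, impairs peroxisomal import and lipid metabolism. The sug gene is known for its induction by dietary sugar and for its part in the control of lipogenic genes.

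Of the 8 genes, 7 had a summit of the IDR set no more than 1 kb from a transcription start site (TSS), here called a promoter summit, and Pex19 did not. The bases near the summits are shown for 5 of the 7 genes as a description, and they do not show which bases were bound. They come from the RefSeq copy of dm6, are written 5′ to 3′ on the strand of the gene, and are the part of the 100 bp on each side of a summit that is unbroken by an annotated UTR or non-coding exon. For Pex3 the summit nearer the TSS is shown. Capitals mark the GATA factor word GATAAG and the short word CGATA, which overlap at Pex16, and neither is in the stretches of Pex3 and Pex10.
Pex3 chr3L:15144194-15144354 (plus strand): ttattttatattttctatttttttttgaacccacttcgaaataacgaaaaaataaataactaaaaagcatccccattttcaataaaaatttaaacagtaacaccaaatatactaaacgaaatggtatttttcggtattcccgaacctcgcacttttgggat
Pex16 chr3L:20778265-20778455 (minus strand): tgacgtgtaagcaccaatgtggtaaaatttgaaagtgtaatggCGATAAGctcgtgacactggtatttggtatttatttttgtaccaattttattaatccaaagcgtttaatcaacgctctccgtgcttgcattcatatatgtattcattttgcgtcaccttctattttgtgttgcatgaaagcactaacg
Pex5 chrX:1868804-1868869 (minus strand): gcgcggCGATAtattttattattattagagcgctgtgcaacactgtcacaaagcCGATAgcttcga
Pex2 chr3L:8338945-8339050 (plus strand): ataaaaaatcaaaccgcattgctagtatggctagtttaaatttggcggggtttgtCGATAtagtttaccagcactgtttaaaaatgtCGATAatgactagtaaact
Pex10 chr3L:1558562-1558656 (plus strand): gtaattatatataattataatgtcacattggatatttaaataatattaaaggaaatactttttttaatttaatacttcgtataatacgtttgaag
In the full windows of 201 bp the GC content was 31.8% at this Pex3 summit, 36.3% at Pex16, 44.3% at Pex5 and 32.3% at both Pex2 and Pex10, where the promoter summits of the IDR set had a median of 40.8% and quartiles of 34.3 and 47.3%. The Pex5 summit lies in a coding exon of Pex5, the Pex10 summit in an intron of Pex10, and the others lie between genes.

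The share of 7 of 8 genes (87.5%) stood beside 39.3% of all protein-coding genes, 5485 of them, with a promoter summit in the IDR set. In the longer pooled list the same 7 genes were bound, beside 54.5% of protein-coding genes. Among the 4671 IDR summits with the higher signal, Pex3, Pex6, Pex10, Pex13 and Pex16 kept a promoter summit, which is 5 of 8 genes (62.5%) beside 24.3% of protein-coding genes. No IDR summit lay in a gene body more than 1 kb from the TSSs of its gene in any of the 8, beside 10.1% of protein-coding genes with one. That share covers genes of every length, and with so few and short genes a count of 0 is no contrast to it. The 8 genes are of middle length, from 1226 bp for Pex2 to 3429 bp for Pex19, where the quartiles of protein-coding genes are 1178, 2164 and 4999 bp, and have 1 or 2 annotated TSSs. In protein-coding genes of the same quartile of length and the same number of TSSs the share bound ran from 33.3 to 57.5%, and averaged over the 8 genes it was 42.5%. These shares are descriptions, since the list was named with earlier results of these data known, and no test was made of them.

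Most of these genes have a TSS a short way from that of a gene on the other strand. A head-to-head neighbour, meaning a protein-coding gene on the other strand whose TSS lies within 1 kb so that both are transcribed away from each other, was present for Pex3, Pex5, Pex6, Pex10, Pex13 and Pex16. All 6 of these were bound, beside 59.6% of the 5052 protein-coding genes with such a neighbour. Of Pex2 and Pex19, which have none, only Pex2 was bound, beside 27.7% of the 8916 genes with none. At Pex5 and Pex10 it is the inner TSS that has the neighbour, and the outer TSS lies past that of the neighbour, so these genes overlap. The part of the head-to-head arrangement in the count of 7 was not tested.

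**Figure D1:**
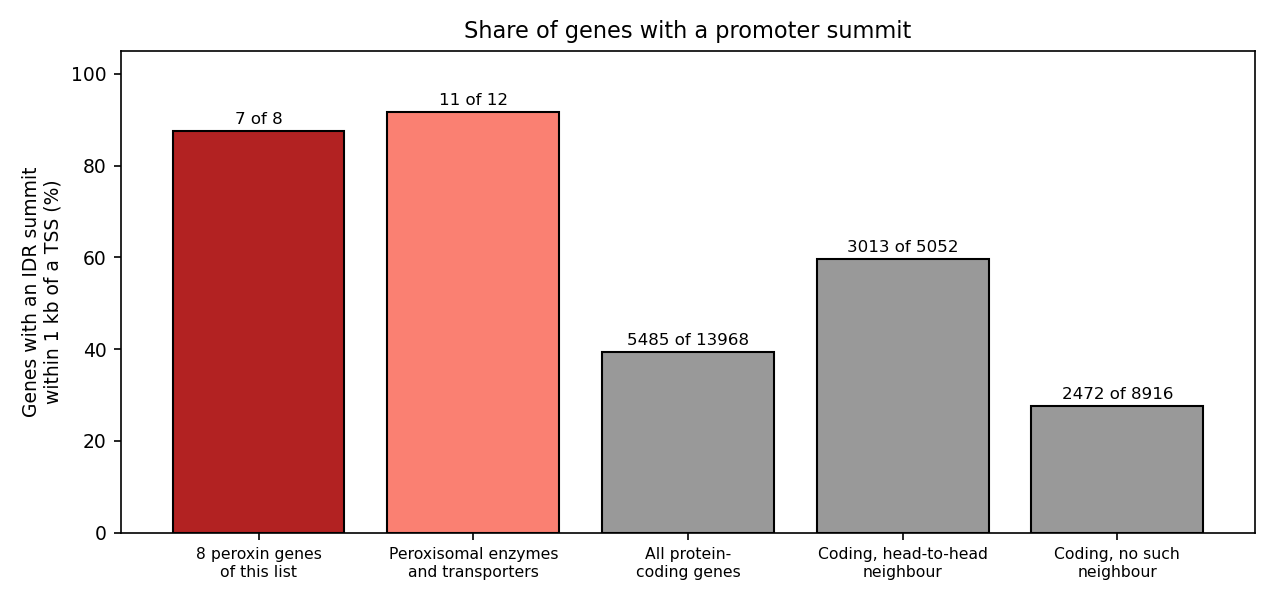
Percent of genes with a promoter summit in the IDR set (y axis) for the 8 peroxin genes, genes of peroxisomal enzymes and transporters, all protein-coding genes, and protein-coding genes with and without a head-to-head neighbour, with counts above the bars. The bar of the 8 peroxin genes stands at 87.5%, and that of all protein-coding genes at 39.3%.

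The genes of membrane assembly were bound at Pex3 and Pex16 and not at Pex19. Pex3, the membrane anchor for Pex19, is FBgn0036484 at 15144355 to 15146379 on the plus strand of 3L. It had a pair of IDR summits within a single interval of 1038 bp. The higher, at 15144094, lay 261 bp upstream of the TSS and had a signal of 1355, or 3.19 times the IDR median, at percentile 91.8. Its signal was 758 in replicate 1, at rank 721, and 643 in replicate 2, at rank 832. The lower, at 15144294 and 61 bp upstream, had a signal of 922, with 591 in replicate 1 at rank 1118 and 330 in replicate 2 at rank 2370. Replicate 1 put both summits close in rank, and replicate 2 put the one near the TSS further down. The higher summit was 35 bp upstream of the TSS of CG32147, the head-to-head neighbour whose TSS is 296 bp from that of Pex3, and lay in an exon of asRNA:CR45397, so it names this locus and not Pex3 alone.

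Pex16, which takes part in early membrane assembly, is FBgn0037019 at 20776766 to 20778264 on the minus strand of 3L, and its upstream summit differed most in rank between replicates. Its IDR summit at 20778355, 91 bp upstream, had a signal of 442 at percentile 52.5. Its signal was 55.0 in replicate 1, at rank 18620, and 340 in replicate 2, at rank 2254. A further IDR summit at 20777671, in a coding exon 593 bp downstream of the TSS, had a signal of 324, with 249 in replicate 1 at rank 4511 and 101 in replicate 2 at rank 9799. Replicate 1 therefore favoured the exonic summit and replicate 2 the one at the promoter. The ratio of the ranks at the upstream summit was 8.26, larger than at 99.7% of the 8419 IDR summits matched within 100 bp in each replicate, whose median ratio was 1.49. A weaker summit of the pooled list, at 20778559 with a signal of 191, had a summit within 100 bp in replicate 2 and not in replicate 1. Another at 20779186, in a coding exon of Pex14, had 44.9, with a match in replicate 1 and not in replicate 2. The 91 bp summit lies between the TSSs of Pex16 and Pex14, the docking peroxin, which are 535 bp apart and transcribed away from each other, and it is 444 bp upstream of Pex14.

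Pex19, the chaperone and receptor of peroxisomal membrane proteins, is FBgn0032407 at 12091822 to 12095250 on the plus strand of 2L, with TSSs at 12091822 and 12093762. None of the 4 lists had a summit within 1 kb of either TSS or in the gene body. The nearest summit of the IDR set and of the pooled list, at 12096507, was 2745 bp from a TSS and 1257 bp past the end of the gene. It had a signal of 298, ranked 7066 in the IDR set, had a replicate 2 summit of rank 5823 and no replicate 1 summit within 100 bp, and lay within 1 kb of TSSs of CG6712 and Mt2.

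Of the receptor and docking genes, Pex5 carried the weakest peak of the 7 and Pex13 one of the stronger ones. Pex5, the receptor for the C-terminal import signal of most peroxisomal enzymes, is FBgn0023516 at 1866832 to 1869061 on the minus strand of X. Its IDR summit at 1868854 had a signal of 247, where the lowest of the IDR set was 224, and stood at percentile 8.81. It lay 51 bp upstream of the inner of its TSSs and 16 bp upstream of CG14803, whose TSS is 67 bp away on the other strand. Replicate 1 had it at a signal of 136 and rank 9209. Replicate 2 had no summit within 100 bp, and its highest near a Pex5 TSS, at 1868962, had a signal of 104 and rank 9563. A pooled summit below the IDR set, at 1869054 and 7 bp into the gene, had a signal of 144. The position at Pex5 thus differed between the lists.

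Pex13, the membrane protein at which loaded receptors dock, is FBgn0033812 at 13228276 to 13230234 on the minus strand of 2R. Its IDR summit at 13230291, 57 bp upstream, had a signal of 843 at percentile 81.9. Its signal was 403 in replicate 1, at rank 2186, and 438 in replicate 2, at rank 1517. A weaker summit at 13230492, 258 bp upstream, had a signal of 356, with 193 in replicate 1 at rank 6240 and 161 in replicate 2 at rank 6168. Both replicates gave the same order. The head-to-head neighbour is fsd, with a TSS 349 bp from that of Pex13. The higher summit is nearer to the TSS of Pex13, and the weaker summit is nearer to that of fsd. In the body of Pex13 the pooled list held an intronic summit at 13228897 with a signal of 209 and one in a coding exon at 13229107 with a signal of 118, neither in the IDR set.

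The ubiquitin ligase genes Pex2 and Pex10 differed widely in peak height. Pex10, a RING finger ligase, is FBgn0035233 at 1558228 to 1559863 on the plus strand of 3L, and had the highest signal of the 8 genes. Its summit at 1558611 had a signal of 1504, or 3.55 times the IDR median, at percentile 93.3. The replicates gave 616 at rank 1042 in replicate 1 and 879 at rank 454 in replicate 2. It was 171 bp upstream of the inner TSS of Pex10 and 127 bp upstream of the TSS of CG12099, which lie 298 bp apart and point away from each other. Among the 5485 bound protein-coding genes, ranked by their highest promoter summit, Pex10 was number 546. Of the 4933 other protein-coding genes with a promoter summit found in both replicates, those whose replicate ranks were closest to those of Pex10, by the sum of the absolute log2 rank ratios, were Atg4b and Hibch at 0.123, which share a summit, and RpL23A at 0.157. The shared summit of Atg4b and Hibch ranked 1037 in replicate 1 and 492 in replicate 2, and that of RpL23A 1044 in replicate 1 and 408 in replicate 2.

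Pex2, a RING finger ligase of the same complex, is FBgn0035876 at 8339051 to 8340276 on the plus strand of 3L. Its single IDR summit, at 8339045 and 6 bp from the TSS, had a signal of 311, at percentile 27.6, and was near no other TSS. Replicate 2 held it at a signal of 90.0 and rank 10808, below its 9342 highest, and replicate 1 had no summit within 100 bp. Of all IDR summits, 4.76% had no replicate 1 summit within that distance. The bases printed for Pex2 therefore belong to a peak found in the pooled list and, of the replicate lists, in that of replicate 2. A higher IDR summit, at 8340701 and 425 bp past the end of Pex2, with a signal of 572 and ranks of 3810 in replicate 1 and 2883 in replicate 2, lay within 1 kb of TSSs of CG7083 and Prim1.

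Pex6, an AAA ATPase that extracts the used receptor from the membrane, is FBgn0033564 at 10879974 to 10883202 on the plus strand of 2R. Its IDR summit at 10879841, between genes and 133 bp upstream, had a signal of 1418 at percentile 92.6. Its signal was 629 in replicate 1, at rank 1003, and 793 in replicate 2, at rank 557. The TSS of Taf5, which encodes a subunit of the general transcription factor TFIID, is 301 bp away on the other strand, and the summit was 168 bp upstream of it. A higher IDR summit, with a signal of 2105 and ranks of 284 in replicate 1 and 478 in replicate 2, lay 216 bp past the end of Pex6, within 1 kb of a TSS of Hao, named for a hydroxyacid oxidase.

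**Figure D2:**
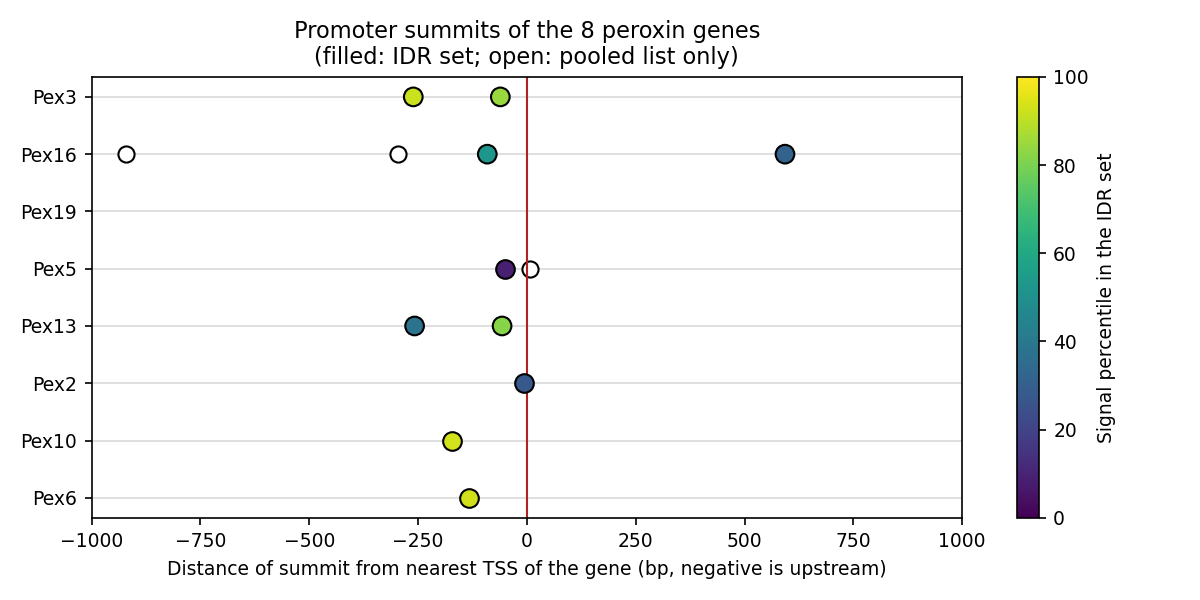
Distance of each promoter summit from the nearest TSS of its gene in bp (x axis, negative is upstream, TSS at the vertical line) for the 8 peroxin genes (rows). Filled points are IDR summits coloured by signal percentile, open points are in the pooled list only; 9 of the 10 filled points lie upstream and the row of Pex19 is empty.

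In the IDR set the highest summits lay close upstream of the nearest TSS, as at many bound genes. The highest promoter summit was upstream of the nearest TSS in 7 of 7 genes, from 6 bp at Pex2 to 261 bp at Pex3 and so within 300 bp in all 7, with a median signed distance of -91.0 bp. Over the 5485 bound protein-coding genes 77.4% had it upstream and 57.6% within 300 bp upstream, with a median signed distance of -112 bp and quartiles of -241 and -13.0 bp. At Pex5 and Pex10 the nearest TSS is the inner one, and the summit lies inside the gene, downstream of the outer TSS. The replicate lists did not keep all 7 upstream: the highest summit was 553 bp downstream at Pex16 in replicate 1 and 99 bp downstream at Pex5 in replicate 2. Pex3, Pex13 and Pex16 had more than 1 IDR promoter summit (3 of 7, or 42.9%), beside 30.5% of bound protein-coding genes. The highest summit also lay within 1 kb of a TSS of another gene in 6 of 7 genes (85.7%), Pex2 being the exception, beside 60.2% of bound protein-coding genes. It was nearer to the peroxin TSS at Pex6, Pex13 and Pex16, and nearer to the neighbour at Pex3, Pex5 and Pex10.

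Peak height ranged widely among the 7 genes. Signals in the IDR set ran 1504 at Pex10, 1418 at Pex6, 1355 at Pex3, 843 at Pex13, 442 at Pex16, 311 at Pex2 and 247 at Pex5. The median percentile was 81.9, beside 61.5 for the highest promoter summits of all bound protein-coding genes, whose quartiles were 34.8 and 83.0. Pex10, Pex6 and Pex3 were above that upper quartile, and Pex2 and Pex5 below the lower. The order of the top 3 was not kept between replicates: their highest promoter summits ranked 721 at Pex3, 1003 at Pex6 and 1042 at Pex10 in replicate 1, and 454 at Pex10, 557 at Pex6 and 832 at Pex3 in replicate 2. Pex13 came next in both replicates, so its place below these 3 was shared by both, while no order among the 3 can be given. Pex16 followed, at 4511 in replicate 1, from its exonic summit, and at 2254 in replicate 2. Pex5 was lower still in both replicates, at 9209 and 9563, and Pex2 was ranked in replicate 2 alone.

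**Figure D3:**
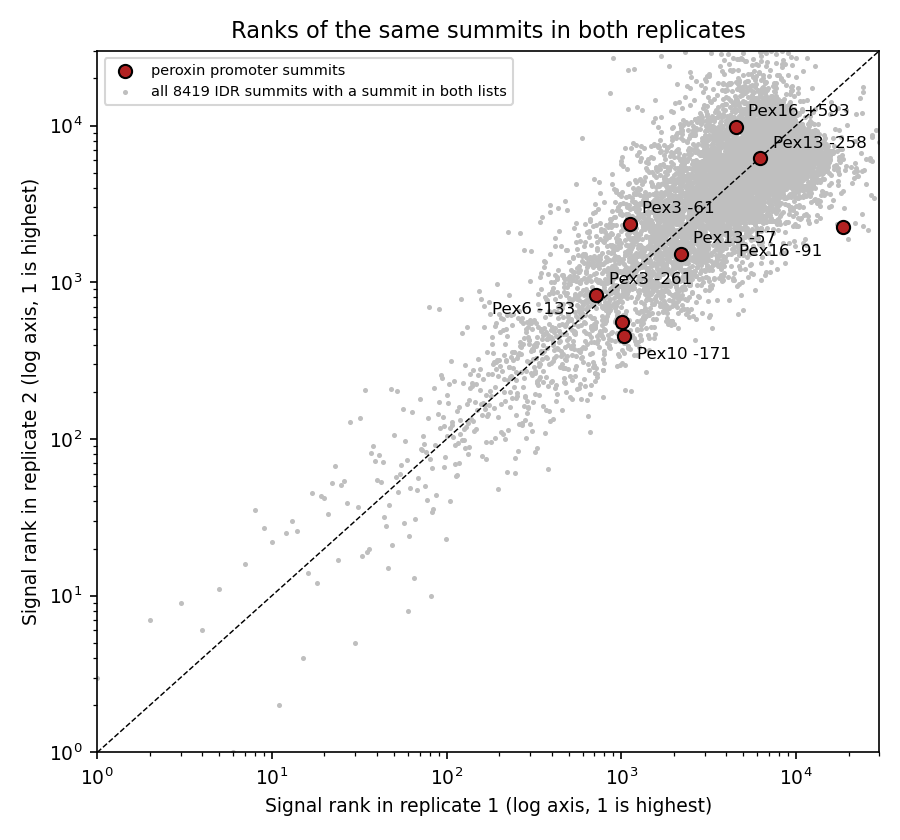
Signal rank in replicate 1 (x axis) against replicate 2 (y axis), both on log axes with 1 the highest, for the 8 peroxin promoter summits found in both lists (red, with distance from the TSS in bp) and all 8419 IDR summits found in both (grey); the dashed line marks equal ranks. The summit 91 bp upstream of Pex16, at ranks 18620 and 2254, lies far from the line.

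Of the 10 IDR promoter summits of these genes, 8 were matched within 100 bp in each replicate, beside 90.1% of all IDR summits. Those without were the summit of Pex2 in replicate 1 and that of Pex5 in replicate 2. Apart from the upstream summit of Pex16, the ratio between the replicate ranks ran from 1.01 at the weaker Pex13 summit to 2.30 at Pex10, and the upper decile of all matched IDR summits began at 2.80.

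Short words known from transcription factors were found at 5 of the 10 summits within 100 bp, and the count depended on the window. In all, 9 words were searched on both strands within 100 bp of each summit. The run CCCCCC, the core of GLIS-type sites, was found at the higher Pex3 summit alone (1 of 10 summits, beside 6.94% of the 6054 IDR promoter summits), and its longer form GACCCCCC at none (beside 0.595%). GATAAG was found at Pex2, Pex5 and Pex16 (3 of 10 summits, beside 23.0%). AGGTCA, the core word of nuclear receptor sites, was found at Pex6 (1 of 10, beside 4.10%), and TGACNNNGC, the core of the antioxidant response element, at the higher Pex3 summit (1 of 10, beside 5.98%). CACGTG, the E box of Mondo-type and Myc-type factors, was at 0 of 10 summits (beside 3.04%), as were the DNA replication-related element TATCGATA (beside 5.57%), the GAGA factor word GAGAGAG (beside 5.35%) and TCACACT, the core of promoter motif 1 (beside 5.73%). CCCCCC is part of GACCCCCC, and GATAAG can share the letters GATA with TATCGATA. At least 1 of the words was held by 5 of 10 summits, beside 46.9% of IDR promoter summits. Within 50 bp it was 2 of 10 summits, beside 28.0%, and within 200 bp 7 of 10, beside 68.6%. Within 100 bp the summits of Pex10, with the highest signal, and Pex13 held none of them. A match is a run of letters and not a site.

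Among other peroxins, promoter summits of the IDR set were also found at Pex11ab and Pex11c, named for the family that acts in peroxisome elongation, Pex14 and Pex23. Pex11ab had a signal of 1535 with ranks of 1089 in replicate 1 and 391 in replicate 2, close to Pex10 in both. Pex23 had 1100 with ranks of 1720 in replicate 1 and 831 in replicate 2, and Pex11c 896 with ranks of 2476 in replicate 1 and 1077 in replicate 2. Pex14 had the summit it shares with Pex16. The summits of Pex11ab, Pex23 and Pex11c also lay within 1 kb of a TSS of CG8320, SCCRO4 and wda. Those of Pex11ab and Pex23 lay in introns of CG8320 and SCCRO4. Pex7, known in yeast and mammals as the receptor for the N-terminal import signal, had no promoter summit in the IDR set or the pooled list, and has a head-to-head neighbour, CG13305, 323 bp away. Whether such a neighbour bears on binding at the peroxin genes was not tested. No share is given for the other peroxins.

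The genes of enzymes and transporters inside the peroxisome were bound at 11 of 12 (91.7%, beside the same 39.3%), the exception being Uro, urate oxidase. Their median percentile was 74.1, beside 81.9 for the 7 bound peroxin genes. Hacl, the 2-hydroxyacyl-CoA lyase, had a signal of 16026, above that of any peroxin gene, with ranks of 11 in replicate 1 and 2 in replicate 2. The signals of Acox57D-p and Acox3, acyl-CoA oxidases that start peroxisomal fatty acid breakdown, were 1210 and 1071, and the related Acox57D-d had 594. Agps and Gnpat, the enzymes that begin ether lipid synthesis, had 807 and 538. ScpX, a sterol carrier protein, had 717, Abcd3, a fatty acyl transporter, 674, and Cat, the catalase, 466. Acat2, a thiolase, had 348 and Mfe2, the multifunctional enzyme of peroxisomal oxidation, 328, both with no replicate 1 summit within 100 bp, as at Pex2. Of the fission genes that peroxisomes share with mitochondria, Drp1 had 371 and Fis1 had no promoter summit.

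**Figure D4:**
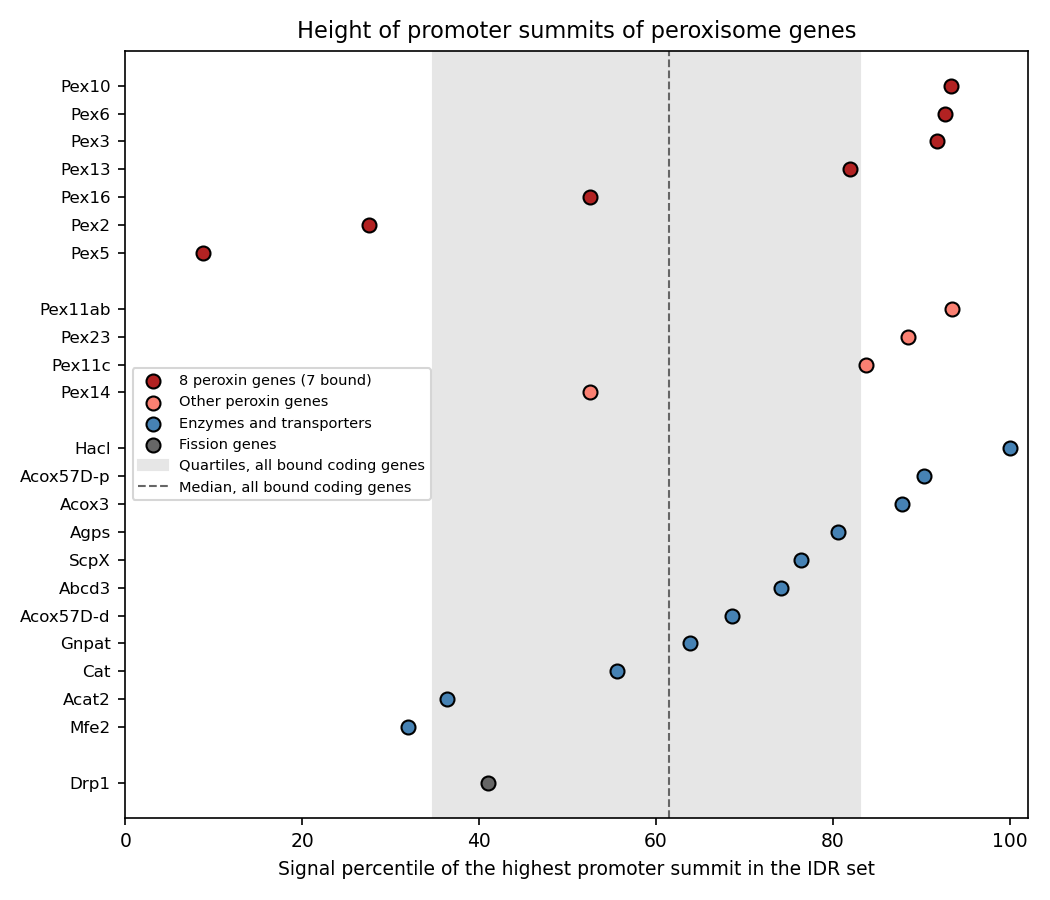
Signal percentile in the IDR set (x axis) of the highest promoter summit of each bound gene (rows), by list, with the quartiles (band) and median (dashed line) of all bound protein-coding genes. The 7 bound of the 8 peroxin genes span 8.81 at Pex5 to 93.3 at Pex10, Pex11ab of the other peroxins is at 93.5, and Hacl is at the top of the scale.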

How the data were processed

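ChIP-seq peaks of sug-eGFP embryos were compared with the Ensembl annotation of dm6 (release 115). Per the text files deposited with the lists, the assembly was dm6 and peaks were called by the authors on each replicate and on both pooled, each with a control, and the IDR set was derived from these lists. That control was not analysed here. The sources used here do not name the aligner or the peak caller. The signal deposited per summit is on the scale of its own list. The −log10 q deposited by the authors is at its cap of 4.38 in every IDR row and ranked nothing. No depth was given. Labels put both samples in 1 group, so no comparison over samples exists, and no p-value was computed.

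A gene was bound if a summit lay within 1 kb of any of its TSSs, and its highest such summit is given. Replicate summits were matched within 100 bp. The deposited summit offset ran beyond the peak end in 2 IDR rows, which were moved to that end. Of the listed gene names, Pex11 and ABCD did not match a gene and were dropped. Members, lists and words were chosen with earlier results of these data known. The rule named all 8 genes, every listed gene, every gene sharing a summit and the 3 genes most like the highest, but some listed peroxins are not reported here. The genes beside summits past the ends of Pex2, Pex6 and Pex19 were named after those summits were seen. The assignment was tested on simulated data. Python 3.11.15, numpy 2.4.6 and pandas 2.3.3 were used.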

Additional observations from a re-analysis of the deposited data

How the results depend on the processing

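The count of 7 bound genes was the same with promoter windows of 500 bp (beside 35.0% of protein-coding genes) or 2 kb (beside 45.3%). It was also 7 with the peak interval in place of the summit (beside 40.5%) and with summits in the gene body added (beside 41.6%). With only the 5′-most TSS (beside 37.4%) and with the pooled list (beside 54.5%) it was 7 too. It was 5 in the higher-signal IDR summits, and 5 to 6 when a replicate was left out and as many of the highest summits of the other were taken: without replicate 1, Pex2 and Pex5 were not bound, beside 40.1% of protein-coding genes, and without replicate 2, Pex2 was not, beside 37.4%. The count of 0 genes with a body summit was 1, Pex13, in the pooled list and in each replicate list (range 1 to 1). The median percentile of 81.9 became 80.8 among promoter summits and 94.4 in the pooled list, and 94.6 to 94.9 in the replicate lists, which hold weaker summits that the IDR set leaves out. The 94.6, in replicate 1, is over 6 genes, without Pex2, and over the same 6 the medians were 86.8 in the IDR set, 96.0 in the pooled list and 96.1 in replicate 2. The median signed distance was -105 to -100 bp in single replicates. A word was held by 2 genes within 50 bp, 5 within 100 bp and 6 within 200 bp, with 28.0%, 46.9% and 68.6% of promoter summits holding one at those distances. Replicate matches numbered 8 within 50 bp and 9 within 250 bp. The enzyme list was at 9 with 500 bp, without Acox57D-d and Agps, beside 35.0% of protein-coding genes. It was at 11 with 2 kb and with the pooled list, beside 45.3% and 54.5%. The fission list was at 1 throughout, beside the same shares. With 2 kb to the other gene, sharing was 7 in place of 6. The same-gene medians and the body, position and sharing alternatives were chosen after seeing the data. A single-gene percentile was said to move if it changed by more than the standard deviation of its 2 replicate values, taken as 0 for Pex2. By this narrow cutoff 22 alternatives moved and 5 did not. Percentiles in the lists of 30000 summits are not on the scale of the IDR set, so this count does not measure stability. No paired analysis was possible because there is 1 group. Depth is unknown, so the absence of a summit at Pex19 is a statement about these lists only.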

Other observations

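The printed sequences drew attention to the word CGATA, chosen after its matches were seen. It lay within 100 bp of the summit at Pex2, Pex3, Pex5, Pex10 and Pex16, in 5 of 10 summits, beside 40.4% of the 6054 IDR promoter summits, a share near that of these genes.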
